A study of Mus musculus with 6 samples.

Results

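The genes for the CD8 and CD4 coreceptors and for the transcription factors that set which of them a T cell carries were followed in cultured mouse T cells on microarrays. They were Cd8a, Cd8b1, Cd4, Zbtb7b, Runx1 and Runx3, 6 of 18193 genes, chosen by name. Every probe set (the group of probes that reports 1 transcript) whose only gene symbol was one of these was taken, which gave 18 of 45037 probe sets that were not array controls. Each was kept apart, because probe sets of the same gene did not always move together. The sample titles name 2 groups of 3 arrays. The 2D11 arrays (replicates 1, 2 and 4) hold cells labelled CD8aa Tregs, which the series describes as regulatory T cells that carry the CD8 alpha homodimer and see the class Ib MHC molecule Qa-1. The OvacD8 arrays (replicates 1, 2 and 3) hold cells labelled OT-1 CD8aa+TCRab+ T cells, which come from the OT-1 line, mice with a transgenic receptor for an ovalbumin peptide. Both kinds of cell are given as T cell clones, grown as lines with their own antigen, antigen-presenting cells and IL-2. The labels give no age, sex or treatment. Both groups share the kind of culture but not the antigen, which cannot be told apart from the group. Whether the replicates within a group came from different cultures or mice is not in the labels, and the spread behind each p-value may therefore be technical.

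CD8 is a pair of chains, an alpha-alpha homodimer or an alpha-beta heterodimer, that binds class I MHC beside the T cell receptor, and CD4 does the same for class II. Conventional cytotoxic T cells carry the heterodimer, whereas the homodimer is known from intestinal and other unconventional T cells and from a subset of dendritic cells. In the thymus ThPOK, encoded by Zbtb7b, directs cells to the CD4 lineage, and RUNX3 directs them to the CD8 lineage. RUNX proteins bind the silencers of Cd4 and Zbtb7b and enhancers of Cd8a, and RUNX1 acts earlier, in precursors that have not yet chosen.

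The deposited values were taken as log2, since their base is not given in the sources used here, and were centred, so that the median of each probe set over the 6 arrays is 0. They show how a transcript differs between arrays and not how abundant it is, and a probe set that barely moves may be at background or steady. Where the groups do not overlap, the innermost array of each group mirrors the other around 0 by this construction. The arrays of each group were not equally alike. Over the 29526 probe sets spanning at least 0.1, OvacD8 replicates 2 and 3 correlated at 0.855 and OvacD8 replicate 1 with them at 0.298 and 0.353, a description over probe sets that share arrays. Poly-A spike-in controls, bacterial transcripts added to follow labelling, averaged between -0.09 and 0.73 on the 2D11 arrays and 0.44 on OvacD8 replicate 1, against -1.41 and -2.13 on OvacD8 replicates 2 and 3. Results are therefore given with and without OvacD8 replicate 1. Without it the groups coincide with the spike-in difference, and the difference between the groups cannot be told apart from it there.

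Of the 18 probe sets, 2 passed the test between the groups, 1 lower in 2D11 (Cd8b1) and 1 higher (a Cd8a probe set), or 11.1%, against 4.06% of all probe sets (limma, Benjamini-Hochberg adjusted p under 0.05 over all 45037; 2% higher and 2.05% lower). No overlap between groups was seen in 4 of the 18 (22.2%), against 20.3% of all probe sets: 1 was higher in 2D11 (11.7% of all) and 3 were lower (8.54% of all). Of the 12 members spanning at least 0.5, 2 passed and 4 did not overlap, against 10.4% and 44.5% of all probe sets with that span. Of the 18, 16 spanned at least 0.1 over the arrays, and a test over the whole table was run on all 18. Without OvacD8 replicate 1, 6 of 18 passed (33.3%, against 10.6% of all), 5 of them lower in 2D11 (5.8% of all): Cd8b1, a second Cd8a probe set, both Runx3 probe sets and 1 of Runx1. With the spike-in difference as a term of the fit, 3 of 18 passed (16.7%, against 5.24%), namely Cd8b1 and both of those Cd8a probe sets.

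**Figure D1:**
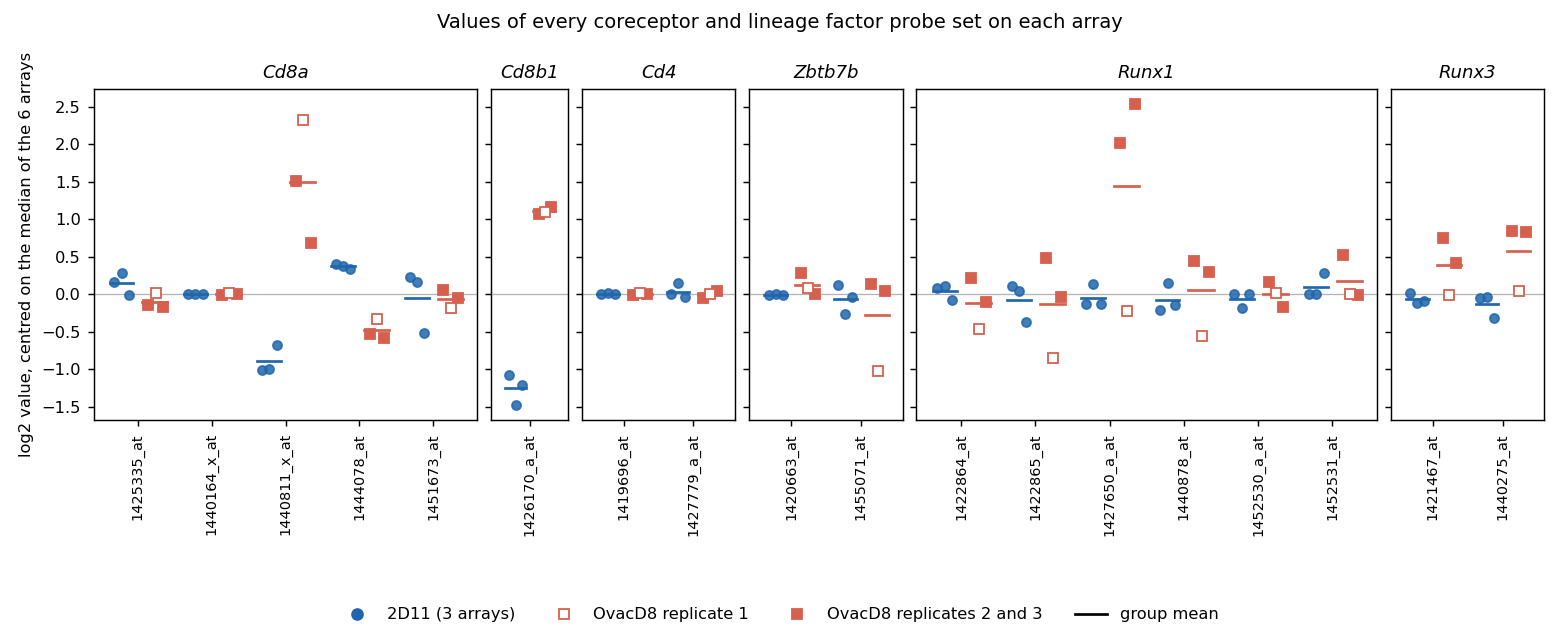
Centred log2 value (vertical axis) of each of the 18 probe sets (horizontal axis, grouped by gene) on each array. Circles are 2D11 arrays, filled squares OvacD8 replicates 2 and 3, open squares OvacD8 replicate 1, and bars the group means. Cd8b1 parts the groups at -1.07 and 1.07, Cd8a probe sets point both ways, Cd4 is flat, and OvacD8 replicate 1 leaves the other OvacD8 arrays in Runx1, Runx3 and Zbtb7b.

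Cd8b1, the beta chain of the CD8 heterodimer, was lower in 2D11. Its 1 probe set (1426170_a_at) stood at -1.07, -1.48 and -1.21 on 2D11 replicates 1, 2 and 4, and at 1.09, 1.07 and 1.16 on OvacD8 replicates 1, 2 and 3. The groups lay apart, and the OvacD8 arrays, replicate 1 included, fell within 0.1 of each other. The difference was -2.36 ± 0.11 (SE, n = 3 per group; 95% interval -2.66 to -2.07; limma adjusted p = 0.00142), 5.15-fold lower. It was -2.37 without OvacD8 replicate 1 (limma adjusted p = 0.00433), and over the 6 fits that left out 1 array each it ran from -2.46 to -2.25 and passed in 6. The suffix _a_at marks a probe set that can match several transcripts of the same gene. Cd8b1 was lower in cells labelled CD8aa Tregs than in cells whose label is also CD8aa+. In cultures like these, fewer cells with the transcript and less transcript per cell cannot be told apart.

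Cd8a, the alpha chain that both forms of CD8 need, was read by 5 probe sets that disagreed. Probe set 1444078_at was higher in 2D11, at 0.40, 0.38 and 0.33 on 2D11 replicates 1, 2 and 4, against -0.33, -0.53 and -0.59 on OvacD8 replicates 1, 2 and 3. The difference was 0.85 ± 0.07 (95% interval 0.66 to 1.04; limma adjusted p = 0.00814), 1.81-fold higher, and the groups did not overlap. Without OvacD8 replicate 2 it was 0.83 and did not pass (limma adjusted p = 0.0515). In the other 5 fits with 1 array left out it passed.

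Probe set 1440811_x_at of Cd8a pointed the other way, with the widest range of the 18. It stood at -1.02, -1.01 and -0.67 on the 2D11 arrays and at 2.31, 1.50 and 0.67 on OvacD8 replicates 1, 2 and 3. The groups did not overlap, but the OvacD8 arrays spread widely, with replicate 1 the highest. The difference of -2.40 ± 0.44 did not pass (95% interval -3.54 to -1.25; limma adjusted p = 0.0636). It was -1.99 without OvacD8 replicate 1 (limma adjusted p = 0.0328) and -2.81 without OvacD8 replicate 3 (limma adjusted p = 0.0431). It passed in these fits. With the spike-in difference as a term, OvacD8 replicate 1 alone against 2D11, it was -3.21. The suffix _x_at marks probe sets whose probes can also match other sequences, so this value is less certain to be Cd8a.

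The other 3 probe sets of Cd8a did not pass. Probe set 1425335_at stood at 0.16, 0.28 and -0.01 on the 2D11 arrays and at 0.01, -0.15 and -0.18 on the OvacD8 arrays, a difference of 0.25 ± 0.10 (limma adjusted p = 0.316), with 2D11 replicate 4 and OvacD8 replicate 1 overlapping. Probe set 1451673_at stood at 0.22, 0.16 and -0.52 on 2D11 and at -0.18, 0.05 and -0.05 on OvacD8, a difference of 0.01 ± 0.23 whose 95% interval runs from -0.57 to 0.60. Its widest departure was 2D11 replicate 4, so a difference of this size in either direction lies within its error. Probe set 1440164_x_at spanned 0.026 over the 6 arrays, and only 7.19% of all probe sets spanned less. Across the 6 arrays 1425335_at and 1444078_at correlated at 0.83, and 1440811_x_at correlated with them at -0.62 and -0.85, as a description of 6 points that share their arrays. A mean over the 5 probe sets, -0.26 ± 0.11 (limma adjusted p = 0.303 over 18193 genes), thus averages opposite directions. By such means 1 of the 6 genes passed, Cd8b1, against 6.67% of all genes.

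Since Cd8a and Cd8b1 were read on the same arrays, the change of one against the other was taken within each array. With the mean of the 5 Cd8a probe sets, Cd8a minus Cd8b1 was 1.03, 1.45 and 1.03 on 2D11 replicates 1, 2 and 4 and -0.72, -0.90 and -1.19 on OvacD8 replicates 1, 2 and 3. The group means were 1.17 ± 0.24 and -0.94 ± 0.24 (SD, n = 3), a shift of 2.11. All 2D11 arrays lay above all OvacD8 arrays (two-sided exact permutation test over the arrays, p = 0.1, the smallest that 3 against 3 can give). Cd8b1 alone already parted the groups at -1.07 and 1.07, while the Cd8a mean ran only from -0.18 to 0.36. The difference therefore had to part them, and nothing is read from this p-value. Most of the shift of 2.11 is the change of Cd8b1 itself (-2.36), beside -0.26 for the Cd8a mean. Against Cd8b1, 1444078_at gave 3.22 and 1425335_at 2.61, of which their own differences make up 0.85 and 0.25. The shifts of 2.37 and 2.38 for 1440164_x_at and 1451673_at restate the change of Cd8b1. Probe set 1440811_x_at gave -0.032 (exact permutation p = 1), having moved as far as Cd8b1 did. The gap between 1444078_at and 1440811_x_at within an array was 1.01 to 1.42 on the 2D11 arrays and -2.65 to -1.26 on the OvacD8 arrays. These probe sets were picked by their values here, and each already parted the groups, in opposite directions. Their gap therefore had to part the groups, and no test is read from it. Cd8a and Cd8b1 are neighbours on mouse chromosome 6, with 0 annotated genes between them in the RefSeq table (assembly GRCm38.p6).

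**Figure D2:**
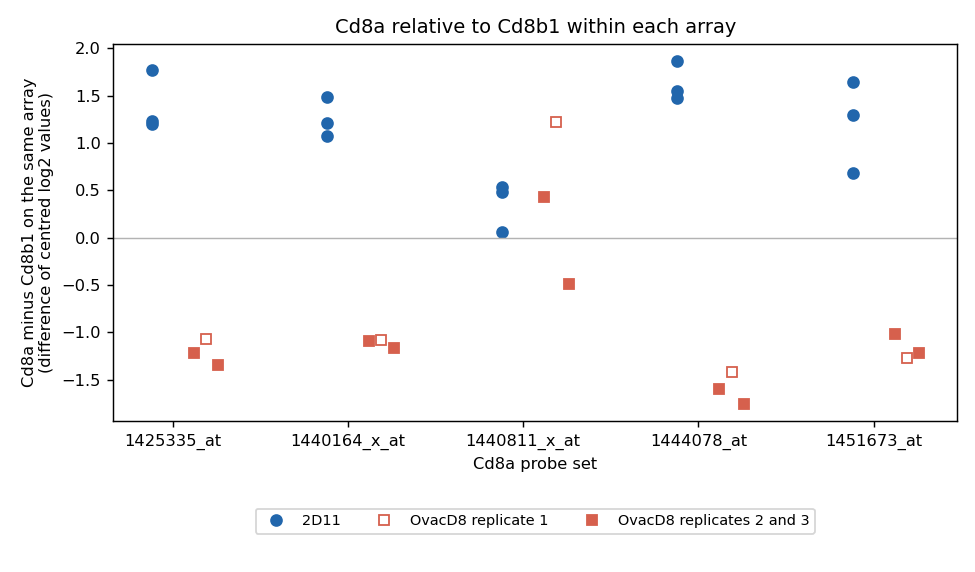
Cd8a minus Cd8b1 on the same array (vertical axis, difference of centred log2 values) for each Cd8a probe set (horizontal axis). Circles are 2D11 arrays and squares OvacD8 arrays, with replicate 1 open. The groups lie apart for 4 probe sets, in each mainly through Cd8b1. For 1440811_x_at they overlap around means of 0.36 in 2D11 and 0.39 in OvacD8.

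Cd4, the coreceptor for class II MHC, showed no detectable difference. Probe set 1419696_at spanned 0.028 over the 6 arrays, and its difference was 0.0056 ± 0.016 (limma adjusted p = 0.942). Probe set 1427779_a_at stood at -0.0024, 0.14 and -0.04 on the 2D11 arrays and at 0.0024, -0.05 and 0.04 on the OvacD8 arrays, and its difference was 0.04 ± 0.06 (95% interval -0.11 to 0.19; limma adjusted p = 0.878). The highest array was 2D11 replicate 2, and the groups overlapped. Of all probe sets, 34.4% spanned less than 0.1, as 1419696_at did and 1427779_a_at (span 0.20) did not. Because levels were removed, the data do not show whether Cd4 was off or evenly on, and its flatness is not evidence that the cells lacked it.

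Zbtb7b, which encodes ThPOK, the factor of the CD4 lineage, did not pass with either probe set. Probe set 1420663_at was -0.01, 0.0026 and -0.0094 on the 2D11 arrays and 0.08, 0.28 and -0.0026 on the OvacD8 arrays, a difference of -0.12 ± 0.08 (limma adjusted p = 0.587). OvacD8 replicate 2 was its highest array, and OvacD8 replicate 3 lay within the 2D11 range. Probe set 1455071_at was 0.12, -0.27 and -0.04 on the 2D11 arrays and -1.03, 0.14 and 0.04 on OvacD8 replicates 1, 2 and 3. A single array, OvacD8 replicate 1, stood below the rest, -1.11 from the mean of the other OvacD8 arrays and -0.96 from the mean of 2D11. The difference was 0.22 ± 0.35 over all arrays (limma adjusted p = 0.892) and turned to -0.15 without that array (adjusted p = 0.705).

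Runx3, the factor of the CD8 lineage that silences Cd4 and Zbtb7b, was high on OvacD8 replicates 2 and 3 only. Probe set 1440275_at stood at -0.05, -0.04 and -0.31 on the 2D11 arrays and at 0.04, 0.84 and 0.83 on OvacD8 replicates 1, 2 and 3. Probe set 1421467_at stood at 0.01, -0.11 and -0.10 on 2D11 and at -0.01, 0.75 and 0.42 on OvacD8. In both, OvacD8 replicate 1 lay near the 2D11 arrays, 0.17 and 0.06 above their mean and -0.80 and -0.59 from the mean of the other OvacD8 arrays. Neither passed over all arrays, at -0.70 ± 0.26 (95% interval -1.37 to -0.04; limma adjusted p = 0.278) and -0.45 ± 0.20 (limma adjusted p = 0.389). Without OvacD8 replicate 1 they were lower in 2D11 by -0.97 and -0.65 and passed (limma adjusted p = 0.0151 and 0.0493). With the spike-in difference as a term, which leaves OvacD8 replicate 1 alone against 2D11, they were -0.17 and -0.06. The Runx3 result thus rests on which OvacD8 arrays are read.

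Runx1, which acts in T cell precursors and represses Cd4 there, was read by 6 probe sets, and 0 of them passed over all arrays (unadjusted p from 0.113 to 0.888 in limma). Probe set 1427650_a_at had the widest range, at -0.14, 0.14 and -0.14 on the 2D11 arrays and at -0.23, 2.02 and 2.53 on OvacD8 replicates 1, 2 and 3. As for Runx3, OvacD8 replicates 2 and 3 were the high arrays. Here replicate 3 was the higher of them, and OvacD8 replicate 1 lay below the lowest 2D11 array. The difference was -1.49 ± 0.77 (limma adjusted p = 0.474), and -2.32 without OvacD8 replicate 1 (adjusted p = 0.00917). With the spike-in difference as a term, OvacD8 replicate 1 alone against 2D11, it was 0.18. The other 5 Runx1 probe sets differed by -0.13 to 0.15.

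Of those 5, 1422864_at, 1422865_at and 1440878_at had OvacD8 replicate 1 as their lowest array, at -0.46, -0.86 and -0.55, with the other 5 arrays from -0.11 to 0.21, from -0.37 to 0.49 and from -0.22 to 0.44. Their group differences were 0.15 ± 0.18, 0.06 ± 0.38 and -0.13 ± 0.30. Probe set 1452531_at was above 0.2 only on 2D11 replicate 4 (0.29) and OvacD8 replicate 2 (0.53), with a difference of -0.08 ± 0.18. Probe set 1452530_a_at spanned 0.34, with OvacD8 replicate 2 the highest at 0.16 and 2D11 replicate 2 the lowest at -0.18, and differed by -0.06 ± 0.10. Only 1427650_a_at of the 6 put both OvacD8 replicates 2 and 3 more than 1 above every other array. In 1440878_at they were also the highest arrays, at 0.44 and 0.29, with the next at 0.14. Its difference was -0.44 without OvacD8 replicate 1 and did not pass (limma adjusted p = 0.165).

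Since Runx1 1427650_a_at and both Runx3 probe sets were high on the same arrays, the start regions of these genes are shown. RefSeq (GRCm38.p6) gave 7 windows of 300 bases, from 250 before to 50 after a transcript start, for 4 of the 6 genes: 1 for Cd8a and 2 each for Runx1, Runx3 and Zbtb7b. They were searched on both strands for TGTGGT and TGCGGT, the core letters RUNX proteins bind. The upstream window of Runx1 and that of Runx3 are printed 5′ to 3′ in lower case, with matches (as ACCACA, the other strand of TGTGGT) in capitals. The Runx1 window is chr16:92826025-92826324 on the minus strand and the Runx3 window chr4:135120395-135120694 on the plus strand.
Runx1: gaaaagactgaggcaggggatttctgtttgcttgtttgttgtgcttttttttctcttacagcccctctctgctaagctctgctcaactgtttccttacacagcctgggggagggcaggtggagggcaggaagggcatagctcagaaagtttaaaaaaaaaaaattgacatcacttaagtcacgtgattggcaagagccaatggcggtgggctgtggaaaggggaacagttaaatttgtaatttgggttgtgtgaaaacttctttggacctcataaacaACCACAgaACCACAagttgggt
Runx3: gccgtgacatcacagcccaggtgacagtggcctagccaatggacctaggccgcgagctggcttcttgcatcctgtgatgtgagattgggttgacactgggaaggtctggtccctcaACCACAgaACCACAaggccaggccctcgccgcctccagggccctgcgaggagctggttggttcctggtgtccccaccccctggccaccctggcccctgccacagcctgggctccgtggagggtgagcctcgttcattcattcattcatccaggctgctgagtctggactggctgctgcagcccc
Each upstream window held 2 matches within a shared run of 18 bases, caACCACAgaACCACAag, at positions 277 to 294 of the Runx1 window, after the start, and 115 to 132 of the Runx3 window, before it. This run was the longest that both windows share and was looked for after they were seen. It stood in 4 of 32851 windows (0.0122%), those of Runx1, Runx2, Runx3 and Gm16225. At least 2 matches of the short motifs stood in 2.86% of windows and at least 1 in 22.4%. The downstream Runx1 and Runx3 windows and the upstream Zbtb7b window held 0, the downstream Zbtb7b window and the Cd8a window 1 each. These are matches of letters, and no binding was measured here.

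**Figure D3:**
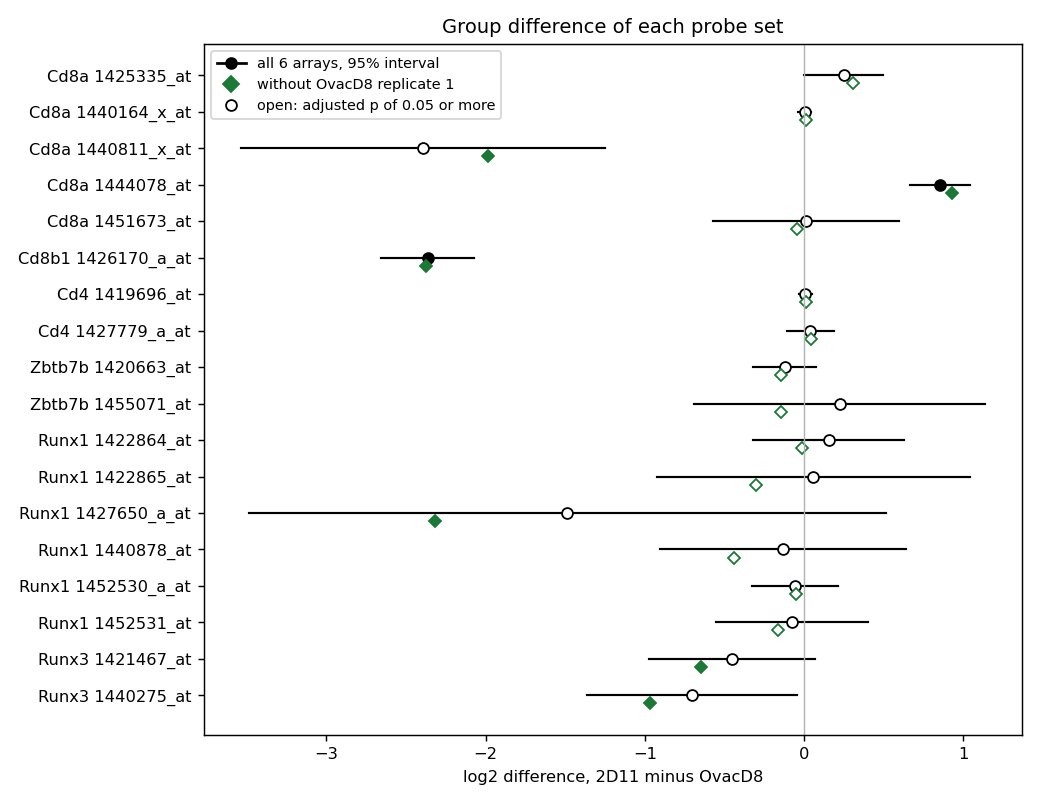
Group difference (horizontal axis, log2, 2D11 minus OvacD8) of each probe set (vertical axis). Circles with lines are the fit on all 6 arrays with 95% intervals, diamonds the fit without OvacD8 replicate 1, and filled symbols those with an adjusted p under 0.05. Cd8b1 (-2.36) and Cd8a 1444078_at (0.85) are filled in both fits, and Cd8a 1440811_x_at, Runx1 1427650_a_at and both Runx3 probe sets only in the second.

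OvacD8 replicate 1 lay with its group for some probe sets and not for others. For Cd8b1 it lay 2.34 above the 2D11 mean, where OvacD8 replicates 2 and 3 averaged 2.37 above it. For Cd8a 1444078_at it lay -0.70 from the 2D11 mean, beside -0.93, and for Cd8a 1440811_x_at 3.21 above it, beside 1.99. For Runx1 1427650_a_at it lay -0.18 from the 2D11 mean, where the others averaged 2.32 above it. Of the 12 member probe sets spanning at least 0.5, OvacD8 replicate 1 was nearer the 2D11 mean than that of the other OvacD8 arrays in 9 (75%), against 50.4% of all 16412 such probe sets. Those 9 include Cd8a 1451673_at, where it lay -0.13 from the 2D11 mean and -0.18 from that of the other OvacD8 arrays. For Zbtb7b 1455071_at and Runx1 1422865_at it lay far from both, at -0.96 and -0.78 from the 2D11 mean and -1.11 and -1.08 from the other OvacD8 arrays. This is 1 array, and no difference between coreceptors and factors was tested.

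**Figure D4:**
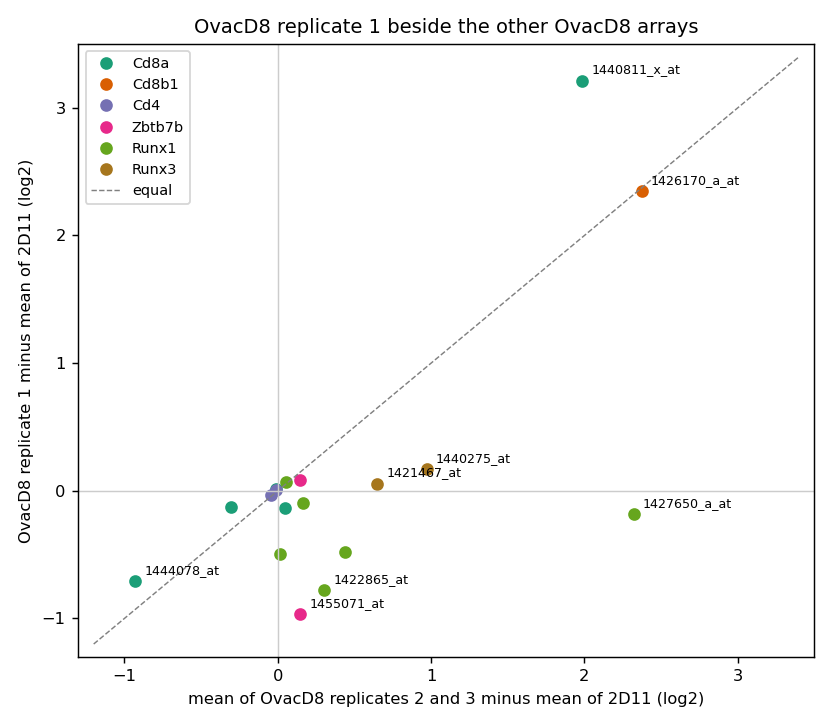
OvacD8 replicate 1 minus the 2D11 mean (vertical axis, log2) against the mean of OvacD8 replicates 2 and 3 minus the 2D11 mean (horizontal axis, log2), 1 point per probe set, coloured by gene. The dashed line marks equal values. Cd8b1 lies on the line at 2.37 and 2.34, while Runx1 1427650_a_at lies at 2.32 and -0.18.

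Antigen-presenting cells were part of the cultures, and some dendritic cells carry Cd8a or Cd4. Over 23 probe sets of myeloid and dendritic markers the mean was -0.06 to -0.04 on the 2D11 arrays, -0.0066 and -0.01 on OvacD8 replicates 2 and 3, and 0.70 on OvacD8 replicate 1. Of the 23, 1 probe set passed, where 4.06% of all probe sets did. It was H2-Ab1 1450648_s_at, a class II MHC chain of antigen-presenting cells. It stood at -1.71, -1.11 and -1.93 on the 2D11 arrays and at 1.52, 1.11 and 1.47 on the OvacD8 arrays, a difference of -2.95 ± 0.25 (limma adjusted p = 0.00816). It was thus low and high on the same arrays as Cd8b1 and Cd8a 1440811_x_at. H2-Ab1 1451721_a_at (-1.73 ± 0.52) and the monocyte gene Cd14 (-0.81 ± 0.16) differed the same way without overlap and did not pass (limma adjusted p = 0.199 and 0.0734). H2-Ab1 1425477_x_at (-0.86 ± 0.37) overlapped. So did every probe set of H2-Aa, another class II gene, at -0.71, -0.28, -0.03 and -0.53. Each of these was highest on OvacD8 replicate 1, and 1435290_x_at stood there at 3.30, against -0.23 and -0.86 on OvacD8 replicates 2 and 3. Batf3 1453076_at went the other way without overlap, at 1.34 ± 0.36 (limma adjusted p = 0.157). Lyz2 (0.88 ± 1.58) and Cd74 (0.20 ± 1.03) were also above 0, with overlap. Both were highest on OvacD8 replicate 1, at 2.70 and 2.15. Both were lowest on OvacD8 replicates 2 and 3, Lyz2 at -1.91 and -2.82 and Cd74 at -1.25 and -1.19. Without OvacD8 replicate 1 they differed by 2.56 and 1.32 (limma adjusted p = 0.0581 and 0.0212). The median difference over the 23 was 0.0026. The macrophage receptor gene Csf1r (1419872_at) stood at 2.92 on OvacD8 replicate 1 and between -0.02 and 0.0019 on the other 5 arrays. Cd8a 1440811_x_at was also highest on that array. The mean over the B cell markers lay between -0.04 and 0.02 on every array, with 7 of the 9 probe sets spanning less than 0.1 and Cd22 1419768_at the widest, from -0.21 to 0.17. Of the NK cell markers, 1 of 3 probe sets passed, lower in 2D11, as 2.05% of all probe sets were. It was a Klre1 probe set at -1.18 ± 0.08 (limma adjusted p = 0.00346). Ncr1 (0.011 ± 0.016) and Klra8 (0.028 ± 0.044) overlapped. The list mean, -0.19 to -0.16 on 2D11 and 0.17 to 0.23 on OvacD8, thus rests on Klre1. The part of these cells in the coreceptor values was not tested.

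The other genes of the lineage pathway were counted in 5 lists by role, for which 49 genes had 102 probe sets. Of these 14 passed, 6 higher and 8 lower in 2D11, against 4.06% of all probe sets (2% higher and 2.05% lower). Without OvacD8 replicate 1, 32 passed (14 higher and 18 lower), against 10.6% of all. A gene was counted if any of its probe sets passed, and the shares over all are for probe sets and not for genes counted so. Of 22 measured regulators of lineage choice (60 probe sets), 3 genes were higher (4 probe sets) and 2 lower (5 probe sets). The median difference was 0.05, beside 0.0076 over all probe sets. The ETS factor gene Ets1, needed for CD8 T cell development, was higher by 2.68 ± 0.30 (1422028_a_at) and 1.92 ± 0.20 (1422027_a_at; limma adjusted p = 0.0166 and 0.0148). On 1422028_a_at the 2D11 arrays stood at 1.00, 1.42 and 0.96 and the OvacD8 arrays at -0.96, -1.82 and -1.87. Ikzf3 (Aiolos, an Ikaros family factor) was lower by -1.38 ± 0.16 (1441088_at), and Satb1, a chromatin organiser that helps switch on the coreceptor genes, by -1.35 ± 0.14 (1436182_at; limma adjusted p = 0.0193 and 0.0146). The Satb1 arrays stood at -0.55, -0.98 and -0.57 in 2D11 and at 0.77, 0.55 and 0.61 in OvacD8. Ets1 had 2 further probe sets and Satb1 2 that did not pass, so probe sets disagreed here too. The other higher genes, named after their values were seen, were Id2, an inhibitor of E proteins, at 0.86 ± 0.14, and Bcl11b, a T cell commitment factor, at 0.66 ± 0.11 (limma adjusted p = 0.0435 and 0.0498). Their other probe sets did not pass, at 0.55 and 0.46 for Id2 and at 0.50, 0.21 and 0.02 for Bcl11b. Nor did Ikzf3 1453378_at, at 0.05. With robust eBayes, array medians subtracted or quantile normalization 1 regulator was higher, and without 2D11 replicate 1, OvacD8 replicate 2 or OvacD8 replicate 3 there were 0.

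The 9 measured partners and ligands of the coreceptors (13 probe sets) had a median of 0.23. Among them 1 gene was higher, with 2 probe sets (2% of all probe sets were higher), and 0 lower. It was Cd28, the costimulatory receptor, with both probe sets at 0.80 ± 0.11 and 0.69 ± 0.10 (limma adjusted p = 0.033 and 0.0361). In this list 0 were higher with array medians subtracted, with quantile normalization, with the replicate block, and without any of the 2D11 replicates or OvacD8 replicate 3. Of 8 genes of the cytotoxic program tied to Runx3 (12 probe sets, median -0.98), 0 were higher and 1 lower, with 1 probe set. It was Crtam, an adhesion receptor of activated cytotoxic cells, at -0.71, -1.09 and -0.81 in 2D11 against 0.71, 1.16 and 1.04 in OvacD8, a difference of -1.84 ± 0.16 (limma adjusted p = 0.00853). Without OvacD8 replicate 1, 6 of the 8 genes were lower with 7 of 12 probe sets, against 5.8% of all probe sets. With the spike-in term, again OvacD8 replicate 1 alone against 2D11, Crtam differed by -1.58 and Ifng, the gene for interferon gamma, by 1.17. Ifng differed by -2.32 without OvacD8 replicate 1. Of 6 genes of the helper program tied to ThPOK (10 probe sets, median 0.30), 0 passed in limma in either direction. At an unadjusted p under 0.05 in limma, 1 of the 10 probe sets stood out. Without OvacD8 replicate 1, 2 genes were higher with 3 of 10 probe sets, where 10.6% of all probe sets passed in either direction. The widest, the costimulator gene Icos (1436598_at), differed by 0.88 ± 0.41 (limma adjusted p = 0.406), with OvacD8 replicate 1 at -1.55 and the other OvacD8 arrays at -0.26 and -0.17. Of 4 genes measured for the T cell receptor complex (7 probe sets, median -0.73), 0 were higher and 1 lower. It was Cd247, the CD3 zeta chain, at -1.24 ± 0.08 and -1.09 ± 0.07 on the 2 of its 4 probe sets that passed (limma adjusted p = 0.00399 and 0.00402). These lists were chosen with earlier results of the same arrays known, and their counts show no more than how many passed.

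**Figure D5:**
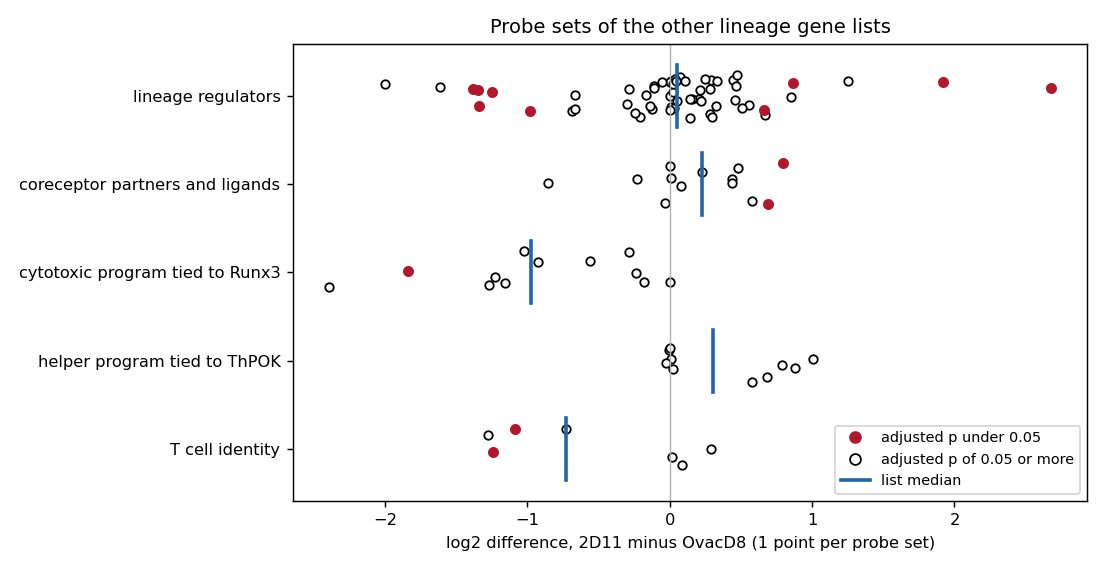
Group difference (horizontal axis, log2, 2D11 minus OvacD8) of each probe set in 5 lists of lineage genes (vertical axis, points spread for visibility). Filled points passed at an adjusted p under 0.05, and vertical bars are list medians, from -0.98 for the cytotoxic program to 0.30 for the helper program.

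For each gene whose widest probe set spanned at least 0.5, the 3 genes nearest in pattern were found among 13437 probe sets of single other genes, by Euclidean distance over the 6 centred values. Nearest to Cd8b1 were Itpripl2 (distance 0.30), Cnrip1 (0.32) and Efhd2 (0.36), each low on all 2D11 and high on all OvacD8 arrays. Nearest to Runx1 1427650_a_at were Myb (0.30), P2ry12 (0.34) and E2f2 (0.39). Myb, a factor of T cell precursors and a member of the lineage list, stood at -0.07 on OvacD8 replicate 1 and at 2.25 and 2.56 on OvacD8 replicates 2 and 3, with the 2D11 arrays between -0.10 and 0.06. Nearest to Runx3 1440275_at were Capzb (0.083), Pxylp1 (0.12) and Galnt6 (0.12). Nearest to Zbtb7b 1455071_at were Cdkl2 (0.26), Hspa4l (0.29) and Rin3 (0.29), all low on OvacD8 replicate 1. Cd8a 1440811_x_at had more distant neighbours, Slc14a1 (0.84), D130051D11Rik (0.93) and Tha1 (0.98). No Cd4 probe set spanned enough to be compared.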

How the data were processed

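Per the labels' protocols, RNA from cultured T cells was extracted with an RNeasy kit and amplified and labelled with the Ovation system. Per the submitters' processing notes the authors used RMA, version not stated. The deposited values were read as log2, a base not given in the sources used here. They were centred: each probe set's median over the 6 arrays lay within 5.0e-07 of 0. This removed levels, so no filter on level was possible and span was used instead. Control probe sets (64 of 45101) were left out.

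Groups came from sample titles. Symbols came from GEO's platform annotation; all 18 probe sets matched a RefSeq Entrez identifier. Group differences were fitted with limma 3.58.1 under R 4.3.3 (lmFit, eBayes, two-sided), adjusted by Benjamini-Hochberg over 45037 probe sets, tested on simulated data. The members, lists and tests were chosen with earlier results of these data known. All member probe sets are named. Of each list, up to 4 passing probe sets with the largest difference are named or, if none passed, the widest. Listed genes without a probe set of a single symbol were not analysed here. Alternatives were other arrays, weights, scalings, spans, thresholds, a replicate block, a spike-in term and gene means. Csf1r, H2-Ab1, H2-Aa, Cd14, Batf3, Lyz2, Cd74, Cd22, Klre1, Ncr1, Klra8, Ifng, Id2 and Bcl11b were named after their values were seen. The number of arrays limits the precision.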

Additional observations from a re-analysis of the deposited data

How the results depend on the processing

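With 3 arrays a group, which probe sets passed depended on the arrays and on how many probe sets were tested. Over the fits leaving out 1 array each, the passing member probe sets numbered 1 to 6 (2 with all arrays), those among all probe sets from 811 to 4773 (1827) and those in the lineage lists 5 to 32 (14). The highest of each came without OvacD8 replicate 1. Gene-by-gene array weights gave 4, 4584 and 25. Array medians subtracted, quantile normalization and robust eBayes each gave 2 members, beside 1555, 1788 and 1623 of the 45037 in all. Fewer were tested under the span filters. A span of at least 0.1 passed 3 of 16 members, 2962 of 29526 in all and 20 in the lists. One of at least 0.5 passed 3 of 12 members, 3187 of 16412 in all and 23 in the lists. An adjusted p under 0.01 left 2 members, 612 in all and 5 in the lists. An adjusted p under 0.05 with a 2-fold size left 1, 1044 and 9. Means over the probe sets of a gene gave 1 member, 1214 genes and 7 in the lists. Replicate numbers 1 and 2 occur in both groups, and the titles do not say whether same-numbered arrays were handled together. The deviations of such arrays from their group means correlated at -0.03 and 0.21. With 3 arrays a group this cannot show whether they shared a batch. With the replicate block 0 members, 229 in all and 1 in the lists passed, Cd8b1 at -2.36 (limma adjusted p = 0.0672) and Cd8a 1444078_at at 0.82 (limma adjusted p = 0.113).

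The Cd8a minus Cd8b1 shift of 2.11 was 2.61 with 1425335_at, 2.37 with 1440164_x_at, 3.22 with 1444078_at, 2.38 with 1451673_at and -0.032 with 1440811_x_at alone. Directions turned in 35 member values, all of probe sets that did not pass except Cd8a 1444078_at in the gene mean (-0.26 for all of Cd8a, which also turned 1425335_at, 1440164_x_at and 1451673_at). Gene means gave 0.050 for Zbtb7b (turning 1420663_at) and -0.26 for Runx1 (1422864_at and 1422865_at). Subtracting medians gave -0.0048 for Cd8a 1440164_x_at and -0.0012 for Cd4 1419696_at. Quantile normalization gave -0.0088 and -0.00028 for these, and -0.0058 for Cd8a 1451673_at. Array weights gave -0.0024 for Cd4 1427779_a_at and 0.063 for Runx1 1452530_a_at, and the replicate block 0.019 for Runx1 1440878_at. The spike-in term gave -0.011 for Cd8a 1440164_x_at and -0.0059 for Cd4 1419696_at. For Runx1 it gave 0.18 for 1427650_a_at, 0.48 for 1440878_at and 0.093 for 1452531_at. Over the fits leaving out 1 array, Cd8a 1451673_at ran from -0.12 to 0.25, Cd8a 1440164_x_at from -0.0046 to 0.0084, Cd4 1419696_at from -0.0014 to 0.011 and Cd4 1427779_a_at from -0.016 to 0.076. Zbtb7b 1455071_at ran from -0.15 to 0.43. Of Runx1, 1422864_at ran from -0.016 to 0.32, 1422865_at from -0.30 to 0.37, 1440878_at from -0.44 to 0.059, 1452530_a_at from -0.14 to 0.023 and 1452531_at from -0.17 to 0.099. The cause of these changes was not tested. Centring removed signal over background, which limits what flat probe sets can show.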
